A study of Homo sapiens with 4 samples.

Results

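Among the 307691 merged accessible sites of SKBR3 cells, 1233 were strong, isolated and distal and were gained with TWEAK. A merged site joined ATAC-seq peaks of any library that overlapped by at least 1 bp. A member was covered by a peak of each TWEAK library and by none of the untreated ones, had no untreated peak within 500 bp, and lay over 1 kb from the start of every transcript of a protein-coding gene. In both TWEAK libraries its peak also ranked at or above the 50th percentile of the list. Of all merged sites 3.6% were gained, 0.591% were gained and strong, 0.423% were isolated as well, and the members, which were also distal, were 0.401%. The same steps with the treatments exchanged left 3.79%, 0.21%, 0.0891% and 0.0835%, the last of which were 257 lost sites. Since the rule used presence and rank of the peaks, these counts and the strength of the members are descriptions and carry no test.

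SKBR3 is a breast cancer cell line of the HER2-positive subtype, in which the ERBB2 gene is amplified, and the values speak for this line alone. ATAC-seq maps accessible chromatin with the Tn5 transposase, which cuts open DNA and leaves sequencing adaptors there. The 2 untreated libraries were compared with 2 from cells that received recombinant human TWEAK at 10 ng/ml for 48 h. Cells of both groups had first been starved for 8 h, and TWEAK was given afresh after 24 h. The cells carried no engineered allele.

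TWEAK is a cytokine of the TNF superfamily encoded by TNFSF12. It binds the receptor Fn14, encoded by TNFRSF12A, which recruits TRAF adaptors and activates NF-kB, chiefly along the non-canonical route in which NIK and IKK-alpha process the precursor NFKB2 to p52, the partner of RELB. NF-kB dimers bind a family of related decamers, and AP-1, the dimer of FOS and JUN proteins, is activated downstream of MAP kinases. Sites far from gene starts that open under a stimulus are commonly enhancers, elements that can act on a gene start at a distance.

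The lists held between 195388 and 228734 peaks of equal width. The background of a list, in reads of pileup and worked out from the deposited values, was 3.59 and 2.24 reads in the untreated libraries and 2.63 and 1.85 in the TWEAK libraries, and its part in the results was not tested. For 10 of 10 luminal and HER2 marker genes, among them ERBB2, KRT8, GATA3 and FOXA1, a start site lay within 1 kb of a peak in every library. Of 11 lymphoid, myeloid, endothelial and fibroblast marker genes, 8 and 7 had such a start site in the untreated libraries. In the TWEAK libraries 9 and 7 did, and their part in the results was not tested. SKBR3 is known to lack the gene for E-cadherin, and the body of CDH1 held 0 peaks in all 4 libraries.

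Of the 10 strongest members, 8 held an NF-kB consensus decamer within 100 bp of the peak centre. The GALNT17, KRT37, PCBD1, PAK5 and ARHGAP26 runs are those of the 5 strongest members. The HS6ST1 run was chosen, among the next 5, for holding 2 NF-kB decamers. The PLEKHA5 and C1orf94 runs were chosen for holding both motifs, and the CADM1 and NAV2 runs for their number of NF-kB matches. Each run comes from hg38, plus strand, 5′ to 3′, named by the nearest protein-coding gene start. Capitals mark the NF-kB consensus and the AP-1 letters TGACTCA or TGAGTCA, searched on both strands. A run was placed around the matches where the site held any, and around the peak centre otherwise.
GALNT17, chr7:71613521-71613621: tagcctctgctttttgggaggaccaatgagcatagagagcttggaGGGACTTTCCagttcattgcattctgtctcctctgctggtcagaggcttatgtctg
PCBD1, chr10:70970947-70971047: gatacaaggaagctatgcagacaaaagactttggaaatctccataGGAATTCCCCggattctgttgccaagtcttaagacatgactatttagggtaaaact
ARHGAP26, chr5:142846459-142846559: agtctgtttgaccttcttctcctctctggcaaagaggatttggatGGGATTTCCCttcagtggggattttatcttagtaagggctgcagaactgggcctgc
HS6ST1, chr2:128404803-128404903: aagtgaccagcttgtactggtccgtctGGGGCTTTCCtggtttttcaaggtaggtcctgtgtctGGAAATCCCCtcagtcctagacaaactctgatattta
PLEKHA5, chr12:19382155-19382255: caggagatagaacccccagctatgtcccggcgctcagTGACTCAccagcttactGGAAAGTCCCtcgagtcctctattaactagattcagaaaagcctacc
C1orf94, chr1:34360784-34360884: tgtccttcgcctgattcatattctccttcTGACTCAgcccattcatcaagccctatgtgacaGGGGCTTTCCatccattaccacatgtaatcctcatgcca
CADM1, chr11:115925323-115925423: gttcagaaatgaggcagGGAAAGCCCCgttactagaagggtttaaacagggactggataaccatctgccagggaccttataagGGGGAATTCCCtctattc
NAV2, chr11:19803658-19803758: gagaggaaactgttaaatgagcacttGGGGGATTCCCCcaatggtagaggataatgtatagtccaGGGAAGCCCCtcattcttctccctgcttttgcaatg
KRT37, chr17:41431759-41431859: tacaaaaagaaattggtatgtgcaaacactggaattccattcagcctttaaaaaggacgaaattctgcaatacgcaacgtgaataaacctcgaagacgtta
PAK5, chr20:9699335-9699435: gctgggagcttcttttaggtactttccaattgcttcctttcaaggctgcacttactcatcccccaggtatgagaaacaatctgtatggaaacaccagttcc
The GALNT17, PAK5, ARHGAP26 and NAV2 sites lay in introns of those genes, and the other sites shown were intergenic. The HS6ST1 site held 2 NF-kB decamers, while the CADM1 and NAV2 sites each held 4 within 100 bp of the centre, several of them overlapping, and 1 of the CADM1 matches lies outside the run. The PLEKHA5 and C1orf94 sites held both motifs. The KRT37 and PAK5 sites, the second and the fourth strongest members, held neither.

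In every member the pileup stood far above what a peak needed to be listed. Across the 1233 members it ranged from 23 to 153 reads in TWEAK replicate 1, with a median of 35, and from 21 to 117 reads in TWEAK replicate 2, with a median of 29. Relative to the background of the list, these were 8.74 to 58.1 times in replicate 1, with a median of 13.3, and 11.4 to 63.4 times in replicate 2, with a median of 15.7. In the untreated lists the weakest listed peak stood at 2.79 and 3.13 times the background, and no member had a peak there. In bulk libraries, more cells with an open site and wider opening in each cell cannot be told apart.

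Both TWEAK libraries placed the members alike. The centres of their peaks lay a median of 11 bp apart, and in 1171 of 1233 members (95%) they lay within 50 bp of each other. The lower of the 2 percentiles had a median of 59.8, was at least 75 in 148 members and was at least 90 in 4. Since the pileups are whole numbers, many members tied at the threshold. The members just inside it, nearest to TXNIP, BRINP3 and VSTM4, had a lower percentile of 50.3, and the sites just outside it, nearest to PAGE5, CUL4B and RTL8B, had one of 49.4. Without untreated replicate 1 or 2 the rule found 1911 or 2366 sites, and without TWEAK replicate 2 it found 2224, against 1640 without TWEAK replicate 1.

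**Figure D1:**
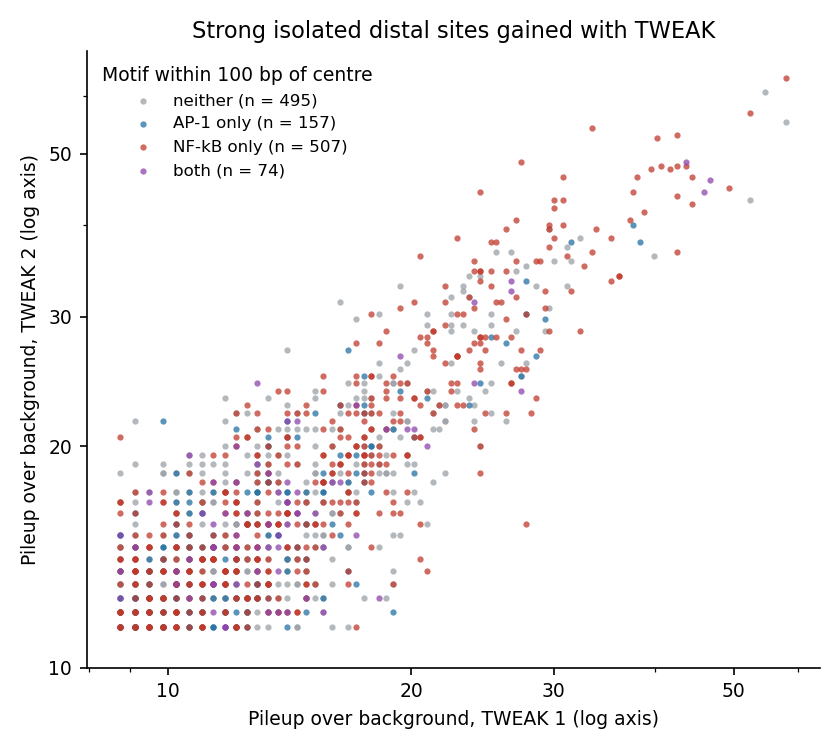
Pileup over the background of the list for each of the 1233 members in TWEAK replicate 1 (x axis) and TWEAK replicate 2 (y axis), both on log axes, coloured by motif class. The points run from 8.74 to 58.1 times on the x axis and from 11.4 to 63.4 times on the y axis, and 103 of the 148 members whose lower percentile was at least 75 held the NF-kB motif.

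The 10 strongest members lay between 7.22 and 313 kb from the nearest gene start. The highest lower percentile belonged to the site in an intron of GALNT17, which encodes a GalNAc transferase. Its pileup was 58.1 times the background in TWEAK replicate 1 and 63.4 times in replicate 2. It lay 313 kb from the gene's nearest start and 8035 bp from the nearest untreated peak. The KRT37 site, 7.22 kb from the start of this hair keratin gene, reached 54.7 and 60.6 times. In neither group did both libraries have a peak within 1 kb of a start of KRT37. The PCBD1 site reached 52.4 and 56.9 times, at 82.4 kb from the start of the gene, and lay 3046 bp from an untreated peak. A site in an intron of PAK5, which encodes a p21-activated kinase, reached 58.1 and 55.2 times without either motif. The other 6 of the 10 strongest, nearest to ARHGAP26, FGF14, NTMT2, HS6ST1, PRR20G and MTAP, stood at 40.6 to 43.7 times in replicate 1 and at 47.6 to 53.1 times in replicate 2, and each held the NF-kB motif. None of the 10 lay closer than 1807 bp to an untreated peak.

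Sites with both motifs, and those with several NF-kB decamers, included some of the strongest members, but the class with both ranked below that with NF-kB alone. The median lower percentile was 60.6 with both motifs, 63.0 with NF-kB alone, 56.0 with AP-1 alone and 58.15 with neither. It was at least 75 in 6 of 74 members with both and in 97 of 507 with NF-kB alone. The FGF14 site, among the 10 strongest, held both motifs. The PLEKHA5 site, 21.0 kb from the start of this pleckstrin homology gene, stood at 46.7 times the background in TWEAK replicate 1 and 46.0 times in replicate 2. The C1orf94 site stood at 46.0 and 44.4 times and lay 45260 bp from an untreated peak. The next with both motifs, an exonic site nearest to FBXO34 and a site in an intron of KCNJ6, stood at 26.6 times each in replicate 1 and at 32.5 and 33.6 times in replicate 2. The most NF-kB matches within 250 bp of the centre, 5, belonged to the CADM1 site, which lay 420 kb from the start of this adhesion molecule gene and stood at 24.3 and 34.7 times. The NAV2 site, with 4, stood at 30 and 38.4 times, and the KCNN2 site, also with 4, at 20.5 and 28.2 times.

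NF-kB consensus matches were the feature that most set the members apart from other distal sites. Within 100 bp of the peak centre, 581 of 1233 members (47.1%, 95% Wilson interval 44.3 to 49.9) held the NF-kB consensus. The share was 3.11% (1.59 to 6.02) in the 257 lost counterparts, 5.43% in the 105386 distal sites with a peak in all 4 libraries and 5.64% (5.56 to 5.73) in the 256460 other distal sites. The ratio of the members to these last was 8.35. At least 2 matches were found in 110 members (8.92%) and in 0.843% of the other distal sites. These intervals cover counting error only, since sites of the same libraries are not replicates. A match is a description of the letters and does not show that a factor was bound.

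AP-1 letters were also more frequent in the members, by a smaller factor. They were found in 231 members (18.7%, 16.7 to 21.0), against 5.06% of the lost counterparts, 11.8% of the distal sites of all 4 libraries and 9.65% of the other distal sites. The related CRE form TGACGTCA was found in 0 of 1233 members, with an upper Wilson bound of 0.311%, and in 0.206% of the other distal sites, so that a difference was not detectable. Both motifs together were held by 74 members, NF-kB alone by 507, AP-1 alone by 157 and neither by 495. Members with the NF-kB motif held AP-1 letters less often than members without it, at 12.7% (10.3 to 15.7) against 24.1% (21.0 to 27.5). In the other distal sites the corresponding shares were 8.52% and 9.72%.

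The shares of other motifs were as follows. The C/EBP letters TTGCNNAA, bound by a family that often acts in inflammatory gene control, were found in 19.6% of the members (17.5 to 21.9) and in 11.7% of the other distal sites. Among the members the C/EBP letters were held by 24.7% (21.5 to 28.1) of those without the NF-kB motif and by 13.9% (11.4 to 17.0) of those with it. The forkhead letters TGTTTAC were found in 8.60% (7.16 to 10.3) of the members, 6.09% of the other distal sites, 7.71% of the distal sites of all 4 libraries and 10.5% (7.32 to 14.9) of the lost counterparts. The TEAD letters GGAATG were found in 19.7% (17.6 to 22.0) of the members and in 16.4%, 18.3% and 25.7% (20.7 to 31.4) of the same sets, so for both motifs the lost counterparts held the highest share. Read on the other strand, the TEAD letters lie wholly inside the NF-kB decamers GGGACATTCC and GGGGCATTCC, which were found in 3 and 2 members. The TFAP2 palindrome GCCNNNGGC, bound by luminal AP-2 factors, was at 8.43% (7.01 to 10.1) in the members, 10.9% in the other distal sites and 16.3% (12.3 to 21.4) in the lost counterparts. Matches to the core motif of the insulator protein CTCF were at 0.811% (0.441 to 1.49) against 1.84%, and the ETS letters CGGAAG at 2.03% (1.38 to 2.98) against 3.30%. The STAT palindrome TTCNNNGAA was at 7.79% (6.42 to 9.42) in the members, 7% (4.48 to 10.8) in the lost counterparts and 6.09% in the other distal sites. The grainyhead letters AACCNGTT were at 3.49% (2.6 to 4.66) against 2.74% of the other distal sites, with 3.58% in the distal sites of all 4 libraries. The RUNX letters TGTGGT were at 14.4% against 14.5%, the GATA letters AGATAA at 7.38% (6.05 to 8.98) against 8.62% and matches to the paired GAAA motif of IRF factors at 1.62% (1.05 to 2.49) against 2.24%. Of the 1233 members, 142 (11.5%) held none of the 14 motifs searched.

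**Figure D2:**
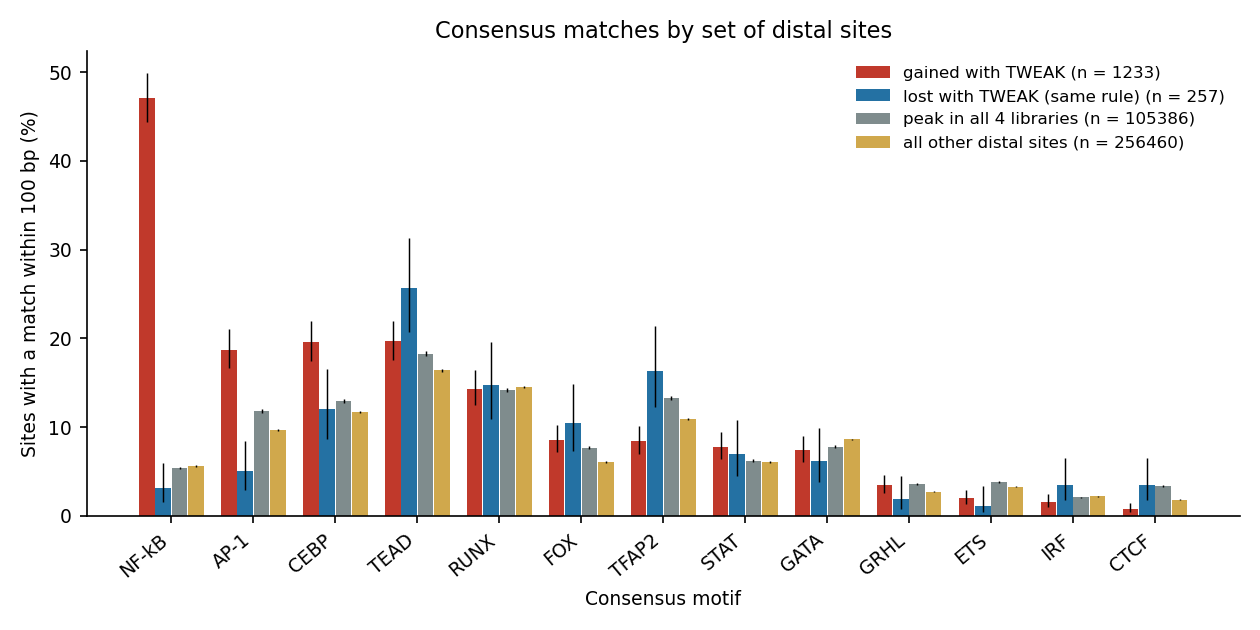
Share of sites with a consensus match within 100 bp of the peak centre, in percent, for 13 of the motifs searched and 4 sets of distal sites, with 95% Wilson intervals as lines. The NF-kB bar of the members, at 47.1%, stands above the 3.11 to 5.64% of the other sets, and the AP-1, C/EBP and STAT bars of the members are also the highest of their groups, the last with intervals that overlap those of the lost counterparts.

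The NF-kB decamers of the members were not a uniform draw from the consensus. On the strand that begins with GGG, the most frequent was GGGACTTTCC, found in 118 members (9.57%) and in 0.226% of the other distal sites, a ratio of 42.3. The next were GGGGAATTCC in 59 members, GGGGATTTCC in 59, GGGAATTTCC in 46 and GGGGCTTTCC in 40. In the other distal sites these decamers were found in 0.189%, 0.166%, 0.197% and 0.165%. The 10 most frequent decamers accounted for 76.4% of the members with the motif, and the same 10 for 27.2% of the other distal sites with the motif. As they were picked for their frequency in the members, this last pair of values is a description. No repeat annotation was used, so sites that are copies of repeated sequence count separately in the shares of motifs, decamers and words.

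The free letters of the consensus also differed by position. Among the 704 decamers of the members, counted from the first G, position 6 was T in 61.2% and position 7 in 83.0%, against 30.6% and 52.2% of the 16813 decamers of the other distal sites. At position 5, A stood in 53.6% against 40.4%, G in 9.80% against 23.3% and T in 10.5% against 14.5%. At position 4 the choice between A and G was nearly the same, with A in 66.2% against 67.3%. The 8-base words with the highest ratio to distal sites of all 4 libraries overlap the leading decamer. They were AAAGTCCC, in 12.4% of the members against 0.864%, and GAAAGTCC, in 11.4% against 0.797%.

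The NF-kB matches gathered at the peak centres. Their density was 5.89 matches per kb of sequence within 25 bp of the centre of a member and 3.45 between 25 and 50 bp. It fell to 0.892 between 75 and 100 bp, and beyond 150 bp it lay between 0.162 and 0.345. In the other distal sites the density was 0.436 within 25 bp and between 0.255 and 0.266 beyond 150 bp, so that far from the centre the members held about as many matches as any distal site. AP-1 matches followed a flatter profile, with 1.56 per kb within 25 bp and 1.39 between 25 and 50 bp, against 0.764 and 0.604 in the other distal sites.

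**Figure D3:**
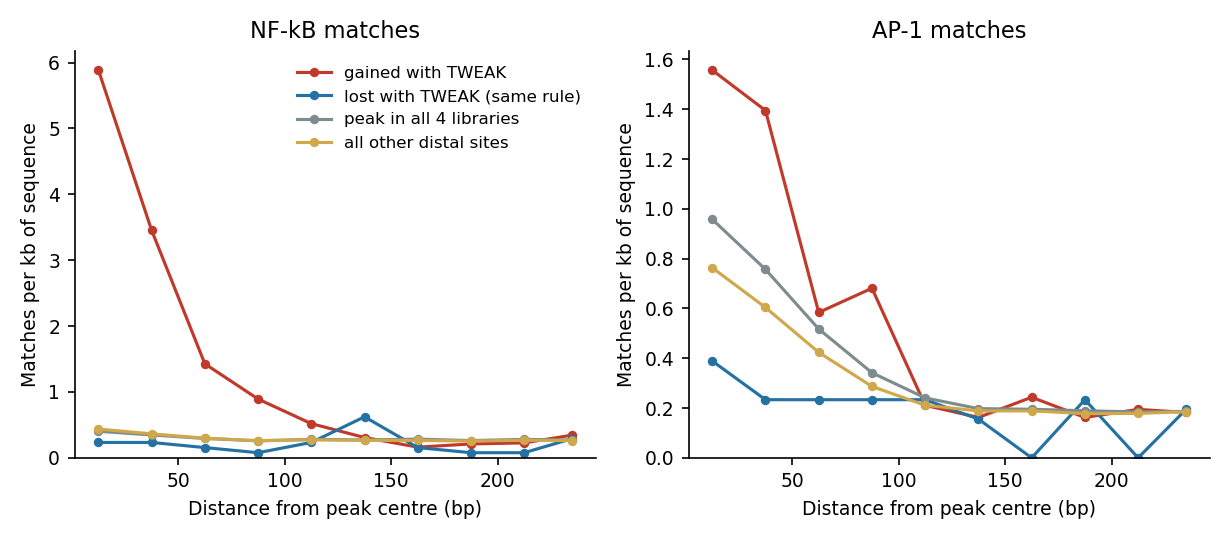
Density of NF-kB (left) and AP-1 (right) matches, in matches per kb of sequence, against the distance from the peak centre in bp, for the members, their lost counterparts and 2 further sets of distal sites; the panels have different y axes. The NF-kB curve of the members starts at 5.89 and comes close to the other curves beyond 150 bp.

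The stronger a gained site was, the more often it held the NF-kB consensus. Over all 7515 gained, isolated, distal sites of any strength, binned by the lower of the 2 percentiles, the share went from 10.2% (8.71 to 11.8) below the 10th percentile to 26.4% (23.8 to 29.2) between the 40th and 50th. Inside the members it was 38.9% (35.1 to 42.7) between the 50th and 60th percentile, 50.9% between the 60th and 70th, 58.1% between the 70th and 80th and 73.9% (62.5 to 82.8) in the 69 sites above the 80th. Distal sites of all 4 libraries went from 3.84% to 7.78% over the same range. The AP-1 letters followed another course. Their share in the gained sites was highest between the 40th and 50th percentile, at 24.1% (21.6 to 26.8), and was 12% (8.16 to 17.4) between the 70th and 80th. In the distal sites of all 4 libraries the AP-1 share went from 5.52% to 15.9%.

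**Figure D4:**
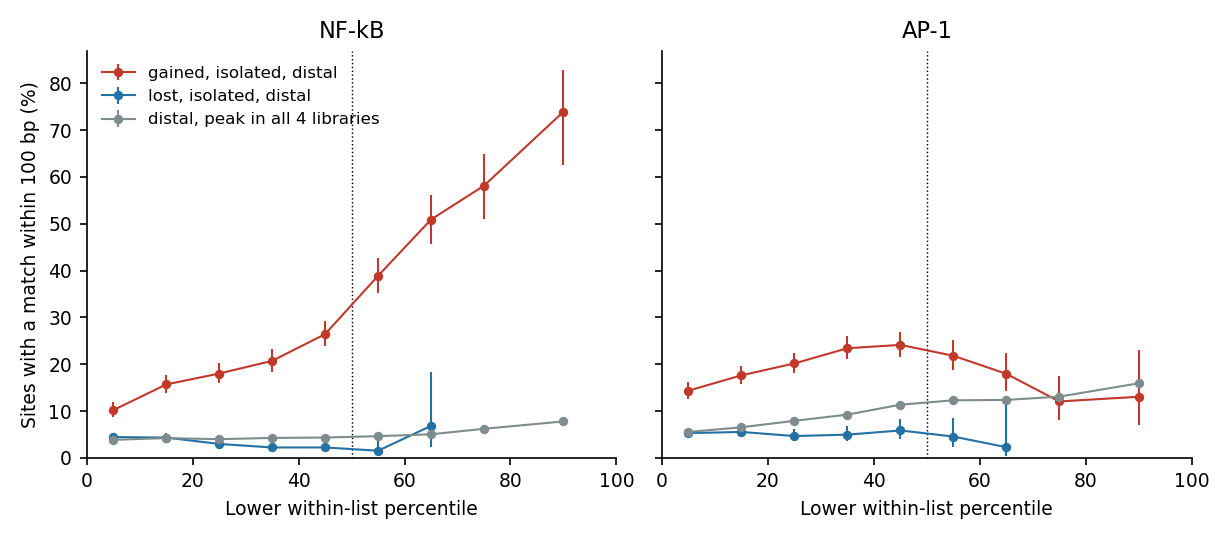
Share of sites with an NF-kB (left) or AP-1 (right) match within 100 bp of the centre, in percent with 95% Wilson intervals, against the lower of the within-list percentiles of the peaks; the dotted line marks the 50th percentile, above which the gained sites are the members, and bins of under 20 sites are left out. The NF-kB share of gained sites climbs from 10.2% to 73.9%, and the AP-1 share peaks at 24.1%.

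To see whether the pattern held in libraries that took no part in the choice, sites were chosen by the same rule from 1 untreated and 1 TWEAK library, and the other 2 libraries were then examined. Of the 4390 sites chosen with TWEAK replicate 1 and without untreated replicate 1, 86.2% (85.1 to 87.2) had a peak in TWEAK replicate 2 and 47.2% (45.8 to 48.7) in untreated replicate 2. There were 2003 sites with a peak in the second TWEAK library alone and 294 with a peak in the second untreated library alone. Over the 4 possible choices the share in the TWEAK library left out was 84.6 to 91.3% and that in the untreated library left out was 33.8 to 47.2%. The TWEAK library left out was the higher each time, but the 4 choices reuse the same 4 libraries and are not independent of each other.

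The NF-kB consensus was unevenly shared among these sites. In the first choice it was found in 39.7% of the 2003 sites seen again only with TWEAK and in 2.72% of the 294 seen again only in untreated cells. In the other choices the shares were 39.7 to 44.2% and 2.31 to 5.41%. Sites seen again only with TWEAK meet the presence rule of the members. The 1233 members are therefore counted among them in each choice, and these shares are descriptions. With the treatments exchanged, the share with a peak in the untreated library left out was 69.6 to 84.9% and that in the TWEAK library left out was 52.0 to 75.6%. Within each of these choices the untreated library left out was the higher. The NF-kB share of the lost sites seen again only in untreated cells was 2.51 to 2.85%.

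The members were not the whole of the NF-kB difference between the lists. With the members left out, 4.63% and 4.64% of the distal peaks of the untreated libraries held the NF-kB consensus, against 6.23% and 6.46% in the TWEAK libraries, a difference of 1.71 percentage points. For the AP-1 letters the shares were 9.30% and 9.31% in the untreated libraries and 11.3% and 11.8% in the TWEAK libraries, a difference of 2.24 points. The groups did not overlap for either motif. By a two-sided exact permutation test over the libraries p was 0.333, the smallest that 2 against 2 libraries allow.

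Most members lay in intergenic sequence and at some distance from genes. Of the 1233, 699 (56.7%) were intergenic, 499 (40.5%) intronic and the remainder in exons, against 49.9% and 45.5% of the other distal sites for the first classes. The median distance to a protein-coding start was 32.3 kb (95% interval 28.8 to 35.9), against 28.0 kb in the lost counterparts and 21.6 kb in the other distal sites. The nearest untreated peak lay a median of 4722 bp away, where the corresponding value was 1130 bp in the other distal sites, although the rule had itself set a minimum. A site open in all 4 libraries lay within 5 kb of 37.6% of the members, 42.0% of the lost counterparts and 62.8% of the other distal sites. At 84.2% of the members the nearest gene start already had a peak in both untreated libraries, against 83.7% for the lost counterparts and 90% for the other distal sites. The GC content of the sequence within 100 bp of the centre had a median of 46.3% in the members and 47.8% in the other distal sites.

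The members were spread over the genome more evenly than distal sites as a whole, and their lost counterparts showed a like pattern. They numbered between 0.192 per Mb on chromosome X and 0.528 on chromosome 20, while distal sites numbered between 32.9 per Mb on chromosome X and 208 on chromosome 20. On chromosome 8, which had 188 distal sites per Mb, there were 45 members, or 1.65 per 1000 distal sites. Chromosomes 17, 20 and 7 had 2.37, 2.53 and 2.99 per 1000, whereas chromosomes 4 and 18 had 9.07 and 10.3. Over the genome the value was 4.78 per 1000. Of the lost counterparts, 11 lay on chromosome 8 and 12 on chromosome 4, which had 188 and 44.6 distal sites per Mb. Chromosomes 20 and 18, with 208 and 36.2 distal sites per Mb, held 5 and 7. The rule leaves fewer places for a member where untreated peaks are dense, and its part in this was not tested.

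Members were counted around genes of the NF-kB pathway and its known targets, and no list was tested against genes at large. Of all 19962 protein-coding genes, 9.76% had a member within 100 kb of a start. Among the genes of NF-kB signalling, this was so for 1 of 5 subunit genes, REL, for 3 of 12 inhibitor and feedback genes, NFKBIE, NFKBIZ and CYLD, and for 3 of 12 genes of TRAF, cIAP and NIK signalling, TRAF1, TRAF2 and CHUK. Of 14 genes for TNF receptors, the TWEAK receptor included, only the death receptor gene FAS had members, 2 in number. With lists of this size each count rests on a few sites, and several of these sites lay nearer to the start of another gene.

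The sites beside NF-kB regulators are given with their values. The REL site, 46.9 kb from a start of this subunit gene, stood at 9.12 times the background in TWEAK replicate 1 and 11.9 times in replicate 2, near the lower end of the members. The NFKBIZ site, 27.8 kb from the start of this atypical IkB gene, stood at 13.3 and 13.0 times and was 18158 bp from an untreated peak. The nearer FAS site, 19.7 kb from a start, stood at 12.2 and 13.5 times. Each of these held an NF-kB decamer, shown here from hg38, plus strand.
REL, chr2:60834477-60834577: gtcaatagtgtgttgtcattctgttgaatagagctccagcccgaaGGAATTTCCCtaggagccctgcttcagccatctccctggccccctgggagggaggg
NFKBIZ, chr3:101884973-101885073: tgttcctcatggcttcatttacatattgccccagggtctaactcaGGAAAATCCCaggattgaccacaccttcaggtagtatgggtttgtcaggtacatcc
FAS, chr10:89032286-89032386: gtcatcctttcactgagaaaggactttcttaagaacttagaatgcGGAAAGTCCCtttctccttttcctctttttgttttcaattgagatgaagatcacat
The second FAS site, 95.1 kb from a start, held AP-1 letters and no NF-kB decamer. The NFKBIE site, 74.3 kb from a start and nearer to SPATS1, stood at 11.0 and 11.9 times and also held AP-1 letters without an NF-kB decamer. The CYLD site, 42.1 kb from a start and in an exon of NOD2, stood at 12.2 and 22.2 times and held neither motif. The sites near TRAF1, TRAF2 and CHUK, which encode adaptors and the IKK-alpha kinase, stood at 14.1 to 14.8 times in replicate 1 and at 14.6 to 16.8 times in replicate 2, and none held either motif.

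Among secreted and surface targets of NF-kB, with 9.76% of all genes as the background, members lay within 100 kb of 4 of 17 chemokine genes (CXCL8, CCL5, CCL19 and CCL21), of 4 of 18 cytokine genes (IL15, IL18, LIF and TSLP) and of 4 of 16 adhesion and acute phase genes (ICAM1, CD44, CD83 and NAMPT). The neighbouring genes CCL19 and CCL21 share the same 2 members, so the 4 chemokine genes stand for 3 loci. The site 5.73 kb from CCL21, a lymphoid chemokine gene, stood at 22.8 and 26.5 times the background and lay 8472 bp from an untreated peak. The CCL5 site, 9.44 kb from the start of this T cell chemoattractant gene, stood at 19.4 and 23.3 times and lay 40061 bp from an untreated peak. The IL15 site stood at 26.2 and 27.6 times, at 76.3 kb from a start of this lymphocyte growth factor gene. The ICAM1 site, 5.57 kb from the start of this leukocyte adhesion receptor gene, stood at 12.5 and 20.6 times. The CCL21, CCL5 and ICAM1 sites held NF-kB decamers and the IL15 site held AP-1 letters. The motif-bearing stretches are as follows, in hg38, plus strand.
ICAM1, chr19:10265439-10265539: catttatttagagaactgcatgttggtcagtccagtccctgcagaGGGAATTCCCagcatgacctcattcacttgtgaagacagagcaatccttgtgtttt
CCL5, chr17:35890210-35890310: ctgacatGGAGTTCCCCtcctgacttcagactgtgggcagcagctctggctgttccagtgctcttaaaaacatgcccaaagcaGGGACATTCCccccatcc
CCL21, chr9:34715810-34715910: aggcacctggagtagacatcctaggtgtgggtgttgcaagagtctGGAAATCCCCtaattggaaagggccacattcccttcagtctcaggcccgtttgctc
The CXCL8 site, 12.7 kb from a start of this neutrophil chemoattractant gene, stood at 14.1 and 22.7 times and held neither motif. The NAMPT site, 69.1 kb from the start of this gene for the enzyme that limits NAD salvage, stood at 15.2 and 14.6 times and held neither motif. Neither motif was held by the sites near IL18, LIF, CD44 and CD83, or by the TSLP site 2.36 kb from a start. The TSLP site 54.4 kb from a start and the second CCL21 site, at 8.07 kb, held an NF-kB decamer.

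Of 13 AP-1 family genes, 3 had a member within 100 kb (FOSL2, JUND and BATF), or 23.1% against 9.76% of all genes. The FOSL2 site, in an intron 5.64 kb from a start of this FOS-related gene, stood at 15.2 and 23.3 times the background. The JUND site held 2 NF-kB decamers and AP-1 letters, at 15.2 and 16.2 times. It lay 49.6 kb from JUND, in an intron of PDE4C and 2.03 kb from the start of that gene. The BATF site, 7.84 kb from the start, stood at 9.12 and 13.5 times and held an NF-kB decamer. Of 16 luminal lineage genes, 1 had a member. This was ESR1, the oestrogen receptor gene, with an intronic site at 12.5 and 15.7 times that held 2 overlapping NF-kB decamers. Of 14 genes of epithelial-mesenchymal transition, 0 had a member within 100 kb, at a share of 9.76% over all genes.

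The lists differed in how many accessible sites surround their genes. Per 1000 distal sites within 100 kb there were 4.38 members around all genes. The value was 17.7 around the chemokine genes, 9.58 around the cytokine genes, 8.85 around the genes of TRAF, cIAP and NIK signalling and 7.59 around the adhesion and acute phase genes. It was 6.88 around the inhibitor and feedback genes and 6.02 around the subunit genes. The AP-1 family genes, at 4.01, the TNF receptor genes, at 3.62, and the luminal lineage genes, at 0.889, lay below the value of all genes. None of these values was tested, and the value of each of these lists rests on 1 to 5 members.

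Members were mostly scattered singly. They had 1067 different nearest genes, of which 934 were nearest to 1 member and 3, AUTS2, PPFIBP2 and SNCAIP, were nearest to 4 each. Joined at distances of up to 100 kb, 1026 members stood alone, and 25 lay in groups of 3 or more. The largest group held 4 members in 84.5 kb by PPFIBP2, a gene for a liprin scaffold protein, where 1 of the 4 held the NF-kB motif. The 3 members near C1orf94 spanned 33.1 kb and all held it, while those near NCK1, which encodes an SH2 adaptor, spanned 39.9 kb and 1 held it. At TNFSF18, the gene of the TNF family ligand GITRL, 3 members lay within 89.9 kb and 2 held the NF-kB motif. None of these groups included a lost counterpart.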

How the data were processed

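ATAC-seq was carried out on 2 untreated and 2 TWEAK-treated libraries of SKBR3 cells, grouped by their titles. According to the study's methods and processing notes, the authors trimmed reads with Trimmomatic, mapped them to hg38 with Bowtie2, used Picard to drop duplicate reads and MACS2 to call peaks library by library. Versions, MACS2 settings and any shift for the transposase are not given in the sources used here. The deposited value of each peak was read, from the values themselves, as a −log10 p, uncorrected. It equals the Poisson upper tail of a whole-number pileup against a single background per list, with errors of at most 5.20e-04, and it depends on depth. Ranks were therefore taken within a list.

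From these lists, peaks of chromosomes 1 to 22 and X were merged at an overlap of 1 bp (Python 3.11.15, pandas 2.3.3, numpy 2.4.6). Distances were taken to GENCODE release 44 starts, and 14 consensus motifs were searched, on either strand, up to 100 bp from the centre of each site's highest-ranked peak. Shares carry 95% Wilson intervals, which cover counting error only. Libraries were compared by exact permutation (scipy 1.17.1). On simulated lists the rule recovered 609 of 609 gained sites and called 0 others. The simulated gained sites were all strong and never missed in a TWEAK list, so this checks the code and not the error rate on real lists. DiffBind, used by the study, needs reads and was not run. The study's methods describe cell line replicates as biological, and the labels tie no library to a culture or day. The sites named were the 10 strongest members, the 5 strongest with both motifs, the 3 with most NF-kB matches within 250 bp, those beside the threshold, the largest groups and those within 100 kb of a listed gene. Some of the sites near listed genes are given by gene and motifs alone. The members, the 10 gene lists with 137 genes and the rule for named sites were chosen with earlier results of these data known. A further result is not reported here. Alternatives changed the percentile, the distances, the peak threshold, the merging, the motif window and letters, and the libraries used.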

Additional observations from a re-analysis of the deposited data

How the results depend on the processing

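The number of members, 1233, was 4042 at a percentile of at least 25 and 148 at 75, 1884 with deposited values of at least 5 and 2112 with pileups at least 5 times the background. With 1 library left out it was 1640 to 2366, since fewer lists then had to meet the rule; it was 1911 without untreated replicate 1, 2366 without untreated replicate 2 and 2224 without TWEAK replicate 2. The NF-kB share, 47.1%, was 29.9% and 69.6% at percentiles of 25 and 75, 43.3% with no minimum distance to an untreated peak, 42.6% at 5 times the background, 38.0% and 52.1% with motifs within 50 and 250 bp, and 34.4 to 41.5% with 1 library left out. The AP-1 share, 18.7%, was 21.8% and 10.1% at percentiles of 25 and 75, 21.2% at 5 times the background, and 13.5% and 23.4% within 50 and 250 bp. The median distance to a start, 32.3 kb, was 37.1 kb with no untreated peak within 2000 bp and 51.5 kb when every site lay over 10 kb from a start. Where an alternative changed the choice of sites or the window, the change follows from its construction for the counts, and for the shares the cause was not tested. The other alternatives moved these values by less than their counting interval, or the count by less than 1.5 times. The difference in NF-kB share between the libraries, 1.71 points, was 1.36 points within 50 bp and 1.95 points with deposited values of at least 5. Taken by replicate number as a block, an alternative chosen after seeing the data, this difference was 1.60 and 1.82 points and its mean was again 1.71, with an exact two-sided sign-flip p of 0.5, the smallest that 2 pairs allow. Nothing in the labels ties libraries of the same number together. Chosen from the libraries of 1 number alone, 4390 sites (25.1% with the NF-kB consensus) were found for number 1 and 2547 (33.1%) for number 2. A peak needed a pileup of 7 to 10 reads to be listed, and the part of depth in which weak sites were found was not tested.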

Other observations

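The C/EBP letters were found in 25.7% (95% Wilson interval 22.0 to 29.7) of the 495 members with neither the NF-kB consensus nor AP-1 letters.

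Starts of long non-coding genes lay within 1 kb of 2.43% of the members and of 4.05% of the other distal sites. No CpG was present within 100 bp of the centre of 23.6% of the members, against 15.9% of the other distal sites and 23.7% of the lost counterparts.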
